A study of Mus musculus with 36 samples.

Results

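Tamoxifen was tested in primary mouse embryonic fibroblasts (MEFs) that carry a Zscan4ERT2 transgene, and its effect was set beside the matching comparison in wild MEFs. The arrays were chosen by their labels: 8 of the 36 arrays of the series, in 4 groups of 2. The first group was transgenic MEFs, named MEF2 ZERT2, cultured in MEF medium without tamoxifen, and the second was the same cells with 200 nM tamoxifen. The last 2 groups were wild MEFs without the transgene, named MEF3, labelled Tmx- and Tmx+. The treatment text of the wild Tmx+ samples mentions no tamoxifen, so these are called wild MEFs labelled Tmx+ here. All 4 groups share the genetic background given as an F1 hybrid from V6.5, but the line names differ, so a difference between MEF2 and MEF3 may be more than the transgene. The sources used here give neither the promoter of the transgene, nor the duration of treatment, nor the number of embryos behind each line. RNA from each culture was labelled with Cy3 and hybridised against 1 reference RNA in Cy5 that was the same on every array, made of pooled mouse cell line RNA and RNA of embryonic stem (ES) cells. Values below are log2 ratios of sample over reference, and a change is a difference of such ratios, Tmx+ minus Tmx-.

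Zscan4 is a family of zinc finger proteins expressed in the early mouse embryo and, transiently, in a small fraction of ES cells, where it is known for its part in telomere maintenance and genome stability. ERT2 is a mutated ligand-binding domain of the estrogen receptor. A protein fused to it is held inactive in the cytoplasm until a tamoxifen compound binds and lets it enter the nucleus. Fibroblasts do not normally express Zscan4, so adding tamoxifen to such cells asks what the fused protein does outside its usual cell type. Wild cells given the same drug would serve as the control for the drug itself, but the treatment text of the wild Tmx+ samples mentions none.

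On each of the 8 arrays, 54.93% to 64.87% of probes stood well above background in Cy3. Precision is limited by having 2 arrays per group. A probe was counted as measured where this held on both arrays of at least 1 of the 4 groups, which was so for 25381 of 42006 probes. The labels do not state whether both arrays of a group had cultures of their own; p-values then reflect array-to-array spread alone, which may be technical. Each group lay alone on its own slide, and an effect of slide cannot be told apart from one of group. Untreated and treated transgenic cells were also scanned on different days, whereas both wild groups were scanned on the same day. The arrays did not separate cleanly by group in either line. Over measured probes, untreated wild replicate 2 correlated with wild Tmx+ replicate 2 at r = 0.9928, above its r of 0.99 with its own replicate. Among transgenic arrays, untreated replicates correlated at 0.995, treated replicates at 0.9883, and untreated with treated arrays at 0.9804 to 0.9901. Treated replicate 1 correlated with untreated replicate 1 at 0.9901, above its 0.9883 with its own replicate. No gene name was paired with any probe in the sources used here. The transgene's RNA, markers of fibroblasts or ES cells, and gene groups were therefore not analysed here, and probes are given by identifier and sequence.

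The probes on which the results turn were 60-base oligonucleotides. The sequences of 5 are given 5′ to 3′ as deposited. The first had the largest rise with tamoxifen in transgenic MEFs. The next 2 rose together and share an unbroken run of 50 bases, set in capitals, so they read overlapping sequence. Z00030893-1 had the largest fall, and Z00050331-1 the smallest adjusted p.
Z00024200-1: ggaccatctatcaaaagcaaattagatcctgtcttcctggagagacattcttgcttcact
Z00025395-1: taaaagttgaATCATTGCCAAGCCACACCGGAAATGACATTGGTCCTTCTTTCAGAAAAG
Z00058639-1: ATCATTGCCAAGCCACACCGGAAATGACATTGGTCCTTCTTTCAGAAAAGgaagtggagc
Z00030893-1: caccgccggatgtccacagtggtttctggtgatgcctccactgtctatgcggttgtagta
Z00050331-1: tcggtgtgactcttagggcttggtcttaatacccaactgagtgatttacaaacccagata

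In transgenic MEFs, tamoxifen was accompanied by changes at many probes, nearly all of them small. Of the measured probes, 2649 were called at an adjusted p under 0.05 in limma (10.4%), 1403 higher and 1246 lower with tamoxifen. Of these, 168 (0.662% of measured probes) changed by at least 0.5 on the log2 scale, which is 1.41-fold: 79 rose and 89 fell (99 and 71 with median centring of each array in place of loess). In all of 4 kinds of values (these ratios, normexp with outlying backgrounds replaced, Feature Extraction's ratio and the sample channel alone), 51 of the 79 and 49 of the 89 were called in the same direction, so the others rest on the choice of values. With the series matrix as well, which holds 62 and 64 of them, the counts were 41 and 38. At least 2-fold changes were seen at 3 probes (0.0118%), 1 higher and 2 lower. The median change over measured probes was 0.0018 and the SD 0.1475. Among all 42005 probes with a value, 7917 were called (18.8%), 3961 higher and 3956 lower, but 5268 of those calls were at probes that were not measured. The split of all calls depended on the scaling, with 1971 higher and 4975 lower under median centring and 2407 and 1095 in the series matrix. The count of all calls was 2778 without treated replicate 2, 3692 without untreated replicate 1 and 3338 without untreated replicate 2, and the count of larger changes was 364 without treated replicate 1.

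Probe Z00024200-1 rose most. Its log2 ratios were 1.67 and 1.89 in untreated and 2.90 and 3.07 in treated transgenic MEFs, a change of 1.21 (SE 0.0818, adjusted p = 4.34e-09 in limma) or 2.32-fold. Its wild arrays had 2.19 and 2.23 without and 2.68 and 2.51 with the Tmx+ label, so it also rose there, by 0.38 (adjusted p = 0.0349). In both cell lines every Tmx+ array lay above every untreated one. The change in transgenic cells exceeded that in wild cells by 0.83 (SE 0.116, adjusted p = 0.000412). The call in wild cells was lost without any 1 of the 4 wild arrays. In the sample channel alone the 2 changes were 1.00 and 0.26. The reference signal of this probe was 60 to 73 on all 8 arrays, against median local backgrounds of 47 to 51 in that channel, so the denominator of its ratio lay near background. In Feature Extraction's background-corrected ratio the change in transgenic cells was 0.87 and was not called (adjusted p = 0.559), and the difference between the lines turned to -0.57 (adjusted p = 0.899). In the series matrix, the deposited table of processed values, that difference was 0.34 and was not called (adjusted p = 0.768). It was also not called with normexp correction on the deposited local backgrounds, at 1.81 (adjusted p = 0.123). With outlying local backgrounds replaced by the median it was called, at 0.70 (adjusted p = 0.0142).

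Probes Z00025395-1 and Z00058639-1, which share 50 bases, rose in transgenic MEFs and were at a lower level in wild MEFs. Z00025395-1 had log2 ratios of -2.20 and -2.32 in untreated and -1.30 and -1.25 in treated transgenic cells, a change of 0.99 (SE 0.091, adjusted p = 3.51e-07 in limma). Its wild arrays held -3.13 and -3.06 without and -3.00 and -2.97 with the Tmx+ label, a difference of 0.11 that was not called (adjusted p = 0.617). Thus the transgenic groups did not overlap with each other or with the wild groups. Z00058639-1 changed by 0.93 in transgenic cells (adjusted p = 1.13e-06), with 0.20 in wild cells (adjusted p = 0.375). The difference between the 2 cell lines was 0.88 (SE 0.129, adjusted p = 0.000643) for the first probe and 0.74 (SE 0.133, adjusted p = 0.00383) for the second. The reference channel alone gave changes of 0 and -0.01 for these probes in transgenic cells and the sample channel 1.02 and 0.97. With normexp correction on the deposited local backgrounds neither difference was called, at -0.06 and -0.09. With outlying local backgrounds replaced by the median, both were called in limma, at 0.83 (adjusted p = 0.00171) and 0.73 (adjusted p = 0.0117). In Feature Extraction's ratio the first was called, at 0.95 (adjusted p = 0.00325), and the second was not, at 0.63 (adjusted p = 0.0827).

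Probe Z00030893-1 had the largest change of all. Its log2 ratios were 3.76 and 3.89 in untreated and 1.78 and 2.33 in treated transgenic MEFs, where it fell by 1.77 (SE 0.174, adjusted p = 8.15e-07 in limma), a 3.41-fold change. In wild MEFs it had 0.45 and 0.63 without and 0.10 and 1.04 with the Tmx+ label, a difference of 0.03 (adjusted p = 0.958). Untreated transgenic cells therefore stood well above wild cells, and treated ones lay between. It was well above background on 1 of the 2 wild arrays labelled Tmx+. Its sample signal was 71 to 112 on the wild arrays. Its reference signal was 70.1 to 96.5 on the 8 arrays, against median local backgrounds of 47 to 51 in that channel. The difference between the lines was -1.80 (SE 0.247, adjusted p = 0.000336), but 0.10 in the series matrix (adjusted p = 0.946) and -1.22 in Feature Extraction's ratio (adjusted p = 0.531). In that ratio its change in transgenic cells was -1.37 and was not called (adjusted p = 0.214). With only the 8 primary arrays in the fit, the difference of -1.80 was not called (adjusted p = 0.0779 in limma).

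Probe Z00050331-1, singled out after its values were seen because its adjusted p was the smallest, was at a like level in 3 of the 4 groups. Its log2 ratios were -1.58 and -1.45 in untreated transgenic cells, -1.36 and -1.40 in untreated wild cells, and -1.34 and -1.36 in wild cells labelled Tmx+. Treated transgenic cells held -2.45 and -2.38, below every other array. The change was -0.90 (SE 0.0526, adjusted p = 3.59e-10 in limma), against 0.03 in wild cells (adjusted p = 0.841). The difference between the lines was -0.93 (SE 0.0744, adjusted p = 2.84e-07), and it was called in the same direction in all 21 alternatives that were run on it, at -1.01 to -0.87. Its reference signal was 7110 to 10200, far above background, and the reference channel alone changed by -0.01.

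The second of the 2 largest falls did not rest on both arrays. Probe Z00004586-1 had log2 ratios of -1.03 and 0.81 in untreated and -1.18 and -1.23 in treated transgenic cells, a change of -1.10 (SE 0.28, adjusted p = 0.00992 in limma). Without untreated replicate 2 it was -0.18 (adjusted p = 0.296). All wild arrays lay between -1.21 and -1.12, so that 1 array is the only one of 8 above -1.

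**Figure D1:**
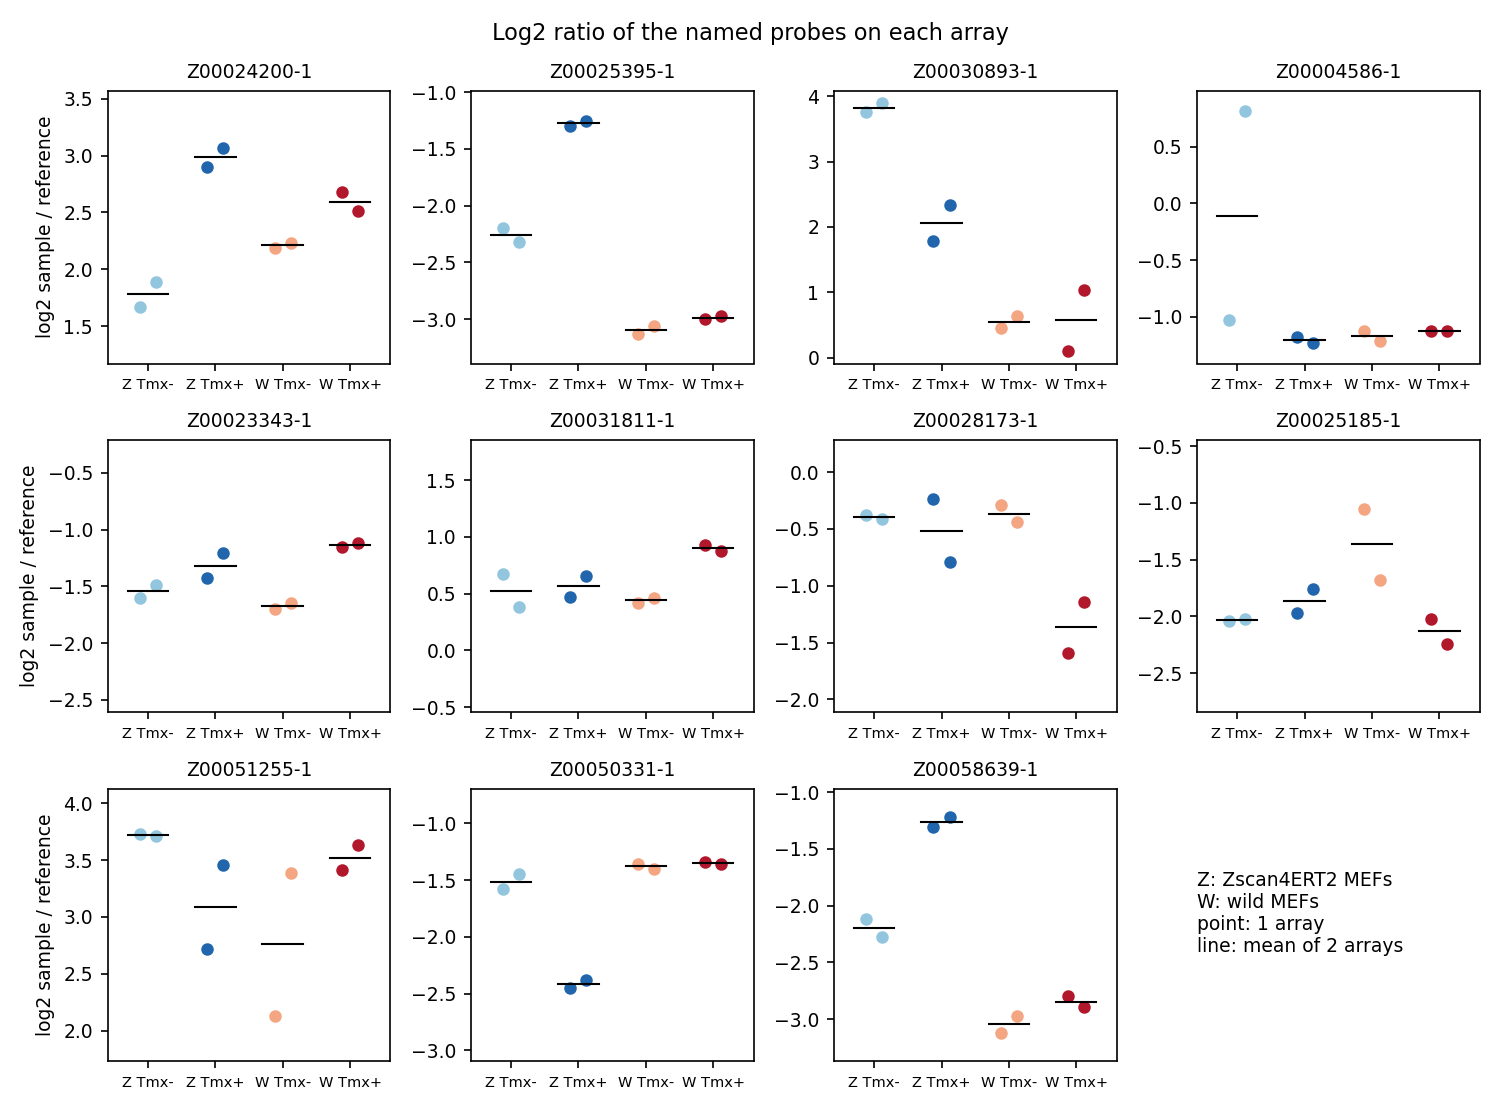
Log2 ratio of sample over reference (vertical axis, each panel with its own range) for the 11 named probes on each of the 8 arrays, by group; points are arrays and lines the mean of 2 arrays. Z00050331-1 is lower on both treated transgenic arrays than on the other 6, while the mean of Z00004586-1 in untreated transgenic cells is set by 1 array at 0.81.

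The probes with large changes overlapped in sequence more than once, which gave a limited check within the array. Of the 168 probes, 14 had a partner among measured probes with an unbroken run of at least 20 shared bases. In all 14 pairs the partner changed in the same direction, and in 13 it was called, against 10.4% of all measured probes. Both probes of a pair were in the list in 12 of these 14 cases, which count each of 6 pairs from both sides. The calls of those 12 partners were set by the choice of the list. Of the other partners, Z00024317-1 was called (adjusted p = 0.00297 in limma) and Z00062305-1 was not (adjusted p = 0.0648). A partner that was not measured, Z00071718-1, changed by 0.13, against -0.55 for its probe in the list. Such pairs read the same or nearly the same RNA, so they repeat the spot and not the culture.

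The larger changes were mostly carried by the sample channel. Of the 79 rising probes, 76 had a change of the same sign in the sample channel alone and 74 were called there. Of the 89 falling probes, all 89 had the same sign and 81 were called. The lists were chosen on ratios that hold this channel, so the shared sign is no separate support. Their median absolute change was 0.617 and 0.605 in the sample channel, against 0.107 and 0.12 in the reference channel. In 6 rising and 7 falling probes the reference channel moved more than the sample channel. The reference RNA is the same on all arrays, yet 195 measured probes were called in the reference channel alone with at least 0.5 between the untreated and treated transgenic arrays (0.768%), and 67 between the wild arrays (0.264%). The reference signals thus also moved between these slides, and their part in the 168 changes was not tested beyond the channel values above.

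Calls were most frequent among the dimmest probes. When all probes were divided into 10 classes by mean sample signal, 42.7% of the dimmest and 7.1% of the brightest were called in transgenic MEFs. In the dimmest 2 classes no probe was measured, and their median changes were -0.117 and 0.077. In the reference channel alone 9.1% of the dimmest and 5.2% of the brightest class were called in transgenic MEFs, and 2.9% and 0.2% in wild MEFs. From the ratios, no class held more than 0.9% called in wild MEFs. The surplus of calls in transgenic over wild cells was therefore present at every brightness but was widest where the sample signal lay at background. In the reference channel alone, with the same RNA on every array, a surplus was likewise present in every class. Its source was not tested.

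**Figure D2:**
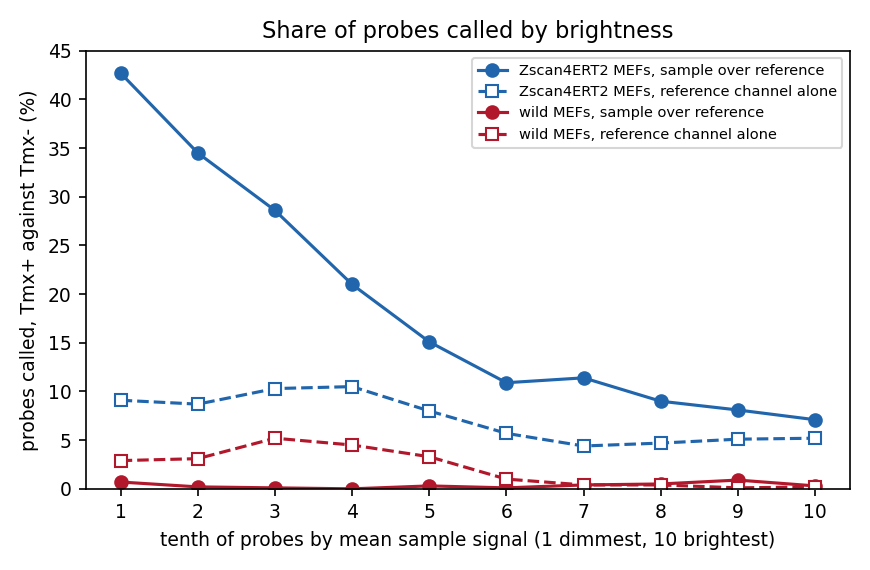
Share of probes called at an adjusted p under 0.05 (percent, vertical axis) in 10 classes of mean sample signal (horizontal axis), for transgenic and wild MEFs, from the ratios (filled points) and from the reference channel alone (open squares). In transgenic MEFs the share drops from 42.7% to 7.1%, while the reference channel alone stays between 4.4% and 10.5%.

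Base composition moved with the Tmx+ label in both lines. From the measured probes with the lowest to those with the highest share of G and C, in 5 classes, the median change went from 0.049 to -0.031 in transgenic cells and from 0.063 to -0.035 in wild cells. The difference between the 2 lines went from -0.013 to 0.014. Rising probes had a median of 40% and falling ones of 41.7% G and C, against 45% for all measured probes. The letters AATAAA, the common polyadenylation signal, were in 14 of 79 rising probes (17.7%), 4 of 89 falling ones (4.49%) and 7.73% of measured probes. The reverse complement TTTATT was in 2, 3 and 3.23%. When each array was centred within 10 classes of G and C share, 168 measured probes still passed the same limits, 75 higher and 93 lower.

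In wild MEFs labelled Tmx+, few of these ratios differed from untreated wild MEFs. Of the measured probes, 110 were called in limma (0.433%), 19 higher and 91 lower. Only 12 of them differed by at least 0.5 (0.0473%), 1 higher and 11 lower (5 and 4 with median centring), and none by more than 1. Feature Extraction's ratio gave far more, 852 calls over all probes and 191 measured probes differing by at least 0.5 (119 higher and 72 lower), and the series matrix gave 1193 and 224 (142 higher and 82 lower), so neither the small number nor the balance of higher and lower among the larger differences held in these values. Over all 42005 probes 153 were called (0.364%), 25 higher and 128 lower (348 and 373 in the sample channel alone), and 5530 had an unadjusted p under 0.05. The count depended on single arrays: it was 15 without untreated replicate 1, 262 without untreated replicate 2, 87 without Tmx+ replicate 1 and 24 without Tmx+ replicate 2. The 12 became 2 without untreated replicate 1 and 77 without untreated replicate 2.

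Probe Z00023343-1 rose most in wild cells, and all 4 of its wild values were tight. Its log2 ratios were -1.70 and -1.65 without and -1.15 and -1.12 with the Tmx+ label, a change of 0.54 (SE 0.0883, adjusted p = 0.00595 in limma). In transgenic MEFs it had -1.60 and -1.49 without and -1.43 and -1.21 with tamoxifen, a difference of 0.22 that was not called (adjusted p = 0.0776). The difference between the 2 changes was not called (-0.32, adjusted p = 0.136), which does not show that they were alike. In the sample channel alone the change in wild cells was 0.51 and in the reference channel -0.05. The call was lost without untreated replicate 1 (adjusted p = 0.106) or Tmx+ replicate 2 (adjusted p = 0.0743).

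For both of the next probes the 2 channels moved differently. Z00031811-1 had log2 ratios of 0.42 and 0.46 without and 0.93 and 0.88 with the label (0.46, SE 0.0821, adjusted p = 0.0127 in limma), but its sample signal was 89.8 to 108 on the wild arrays and the sample channel alone changed by 0.01, while the reference channel changed by -0.98. Its change was 3.17 in Feature Extraction's ratio (adjusted p = 0.023) and 2.04 in the series matrix (adjusted p = 4.55e-06), both called higher. It was -0.17 with normexp correction on the deposited local backgrounds (adjusted p = 0.443). With outlying local backgrounds replaced by the median it was 0.24 and not called (adjusted p = 0.292). Z00028173-1 went from -0.29 and -0.44 to -1.59 and -1.14, a ratio just short of 2-fold lower (SE 0.162 on the log2 scale, adjusted p = 0.00595 in limma). Its sample signal was higher, not lower, on the Tmx+ arrays, at 844 and 885 against 144 and 273, and its reference signal rose from 292 and 693 to 5280 and 3620. Neither call was matched by a like change in the sample channel alone, without background correction.

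Z00025185-1 had -1.05 and -1.68 in untreated wild cells and -2.02 and -2.24 in those labelled Tmx+, where it fell by 0.77 (SE 0.113, adjusted p = 0.00295 in limma). The fall was larger in the sample channel alone, at -1.44 (adjusted p = 5.09e-05), and in both Feature Extraction's ratio and the series matrix, at -2.51 (adjusted p = 2.24e-05 and 5.18e-06). With normexp correction on the deposited local backgrounds it was 0.10 and not called (adjusted p = 0.9). With outlying local backgrounds replaced by the median it was -0.78 and called (adjusted p = 0.00396). The untreated replicates differed by nearly as much as the groups, and without untreated replicate 1 the change was -0.45. The call was lost without Tmx+ replicate 2 (adjusted p = 0.0739). Its transgenic arrays lay between -2.04 and -1.76. The groups did not overlap, but the probe was well above background on 1 of the 2 Tmx+ arrays.

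The calls of the 2 lines shared 22 probes. Of the 2649 called in transgenic and the 110 called in wild MEFs, these 22 were in both lists, 20 of them in the same direction. They are 0.831% of the first list, against 0.433% of all measured probes called in wild MEFs, and 20% of the second, against 10.4% called in transgenic MEFs. No array is in both comparisons, but each probe's spread was estimated once for both, and this raises such an overlap. In wild cells the 79 rising probes had a median change of 0.063 and 63 of them were above 0 (79.7%), against 0.01 and 53.4% for all measured probes. The 89 falling probes had a median of 0.036 in wild cells, and 35 of them were below 0 (39.3%) against 46.6%. Of the rising probes 1 (1.27%) was called higher in wild cells, against 0.0749% of measured probes, and of the falling probes 0 were called lower, against 0.359%. Across the 25381 measured probes the 2 changes correlated at r = 0.236, a description over probes that are not independent and that share the trend with base composition.

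The test of the difference between the lines asks which changes went beyond those of the wild MEFs. Of the measured probes, 716 were called for it in limma (2.82%), 337 with a more positive and 379 with a more negative change in transgenic MEFs. At 192 of them (0.757%) the 2 changes differed by at least 0.5, with 72 more positive and 120 more negative. In the same 4 kinds of values 29 of the 72 and 35 of the 120 were called in the same direction, and with the series matrix 23 and 25. Over all 42005 probes 2110 were called (5.02%), 1025 more positive and 1085 more negative (311 and 812 with median centring). Of the 2110 calls, 1394 were at probes that were not measured. Leaving out untreated wild replicate 2 raised the count of larger differences to 296, and the count over all probes was lowest, at 809, without wild Tmx+ replicate 2. These counts use the arrays of both lines, so they add no evidence independent of the counts above. They also rest on the spread pooled over all 18 groups of the series: with only the 8 primary arrays in the fit, 48 probes were called for the difference, 4999 in transgenic and 0 in wild MEFs, with fewer residual degrees of freedom for the spread.

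**Figure D3:**
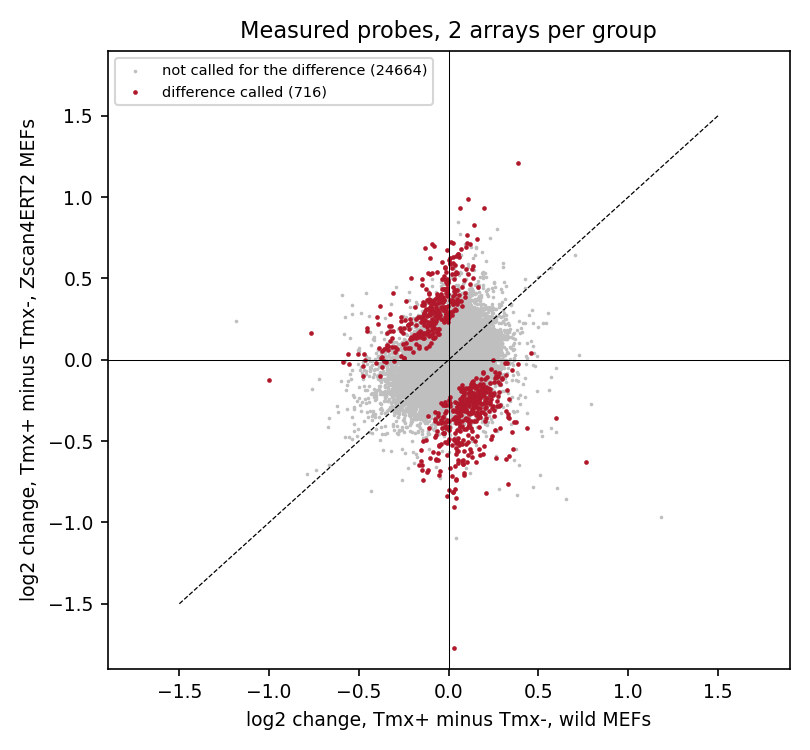
Log2 change with the Tmx+ label in wild MEFs (horizontal axis) and with tamoxifen in Zscan4ERT2 MEFs (vertical axis) for each measured probe; red points are the 716 called for the difference and the dashed line marks equal changes. Red points lie away from the dashed line, most of them along the vertical axis, with Z00030893-1 lowest at -1.77.

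The probes with the largest difference between the lines were Z00025185-1 and Z00025395-1 on the positive side, at 0.93 (adjusted p = 0.00269 in limma) and 0.88, and Z00030893-1 and Z00051255-1 on the negative side, at -1.80 and -1.39 (adjusted p = 0.0201). The first of these came from wild cells, where it fell by 0.77, with 0.17 in transgenic cells. Z00051255-1 had log2 ratios of 3.73 and 3.71 in untreated and 2.72 and 3.46 in treated transgenic cells, and of 2.13 and 3.39 in untreated and 3.41 and 3.63 in Tmx+ wild cells. Replicates of 2 groups thus differed by more than the group means. In the sample channel alone its difference was -0.14, and its reference signal ranged from 104 to 279. Its call was lost without 5 of the 8 arrays in turn, and its value was -0.76 without untreated wild replicate 1 and -2.03 without untreated wild replicate 2.

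The secondary MEFs of the series, labelled KOS-ZERT2 and clone #1, gave arrays that the primary comparison did not use. They are of another generation (their background is given as a hybrid of C57Bl/6 and 129, and V6.5 is an ES cell line from such a cross), were grown in ES medium, and were sampled on days 1, 3 and 6 with 200 nM tamoxifen, 1.5 ug/ml doxycycline, both or neither. Doxycycline switches on inducible transgenes. Without doxycycline, no probe was called for tamoxifen when its effect was averaged over the 3 days (0% of 42005 in limma), with 4955 at an unadjusted p under 0.05. The series matrix gave 377 calls for the same comparison (249 higher and 128 lower) and Feature Extraction's ratio 6. Leaving out day 6 Tmx+ replicate 1 gave 5189 calls, so this count of 0 rests on that array. One of the 2 cultures of day 1 with the Tmx+ label and no doxycycline has a treatment text without tamoxifen.

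Without doxycycline, the 79 probes that rose in primary transgenic MEFs had median changes of 0.03, 0.028 and 0.078 on days 1, 3 and 6, and 50, 49 and 57 of them were above 0. The medians of the 89 falling probes were 0.015, -0.014 and -0.008, and 42, 54 and 46 of them lay below 0. All measured probes had medians of 0.003, 0.001 and 0.018. The falling probes below 0 were thus 47.2%, 60.7% and 51.7%, against 49.1%, 49.6% and 43.4% of measured probes. The rising probes above 0 were 63.3%, 62% and 72.2%, against 50.9%, 50.4% and 56.6%. None of the 168 was called on any of these days. The share of measured probes called was 0% on days 1 and 3 and 0.00788% on day 6.

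With doxycycline, the falling probes were mostly lower with tamoxifen on all 3 days. Their medians were -0.124, -0.13 and -0.088 in order of day. Below 0 were 75 (84.3%), 66 (74.2%) and 58 (65.2%) of the 89, against 50.9%, 50.1% and 49.6% of all measured probes. Of the 89, 6 were called lower on day 1 (6.74%), 21 on day 3 (23.6%) and 20 on day 6 (22.5%), against 0.126%, 2.55% and 3.03% of measured probes. Called higher were 0, 3 and 3. The medians of the rising probes were 0.046, 0.014 and 0.083. Above 0 were 55 (69.6%), 43 (54.4%) and 51 (64.6%) of the 79, against 49.1%, 49.9% and 50.4% of all measured probes. Of the 79, 0, 7 (8.86%) and 12 (15.2%) were called higher, against 0.288%, 5.19% and 6.68% of measured probes. Called lower were 0, 2 (2.53%) and 3 (3.8%) of them, against 0.126%, 2.55% and 3.03%. The shared estimate of the spread favours calls of the same probes in both experiments, but it does not bear on the sign. The share of probes called in either direction in these comparisons was 0.414%, 7.74% and 9.71%. The contrast in the falling probes was not seen over all measured probes. There the transgenic change correlated with the tamoxifen change averaged over days at r = 0.292 without and 0.205 with doxycycline. For the wild change these values were 0.593 and 0.055. Without doxycycline the averaged change also went with base composition: medians were 0.049 in the lowest and -0.027 in the highest class of G and C share. The source of these values was not tested.

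**Figure D4:**
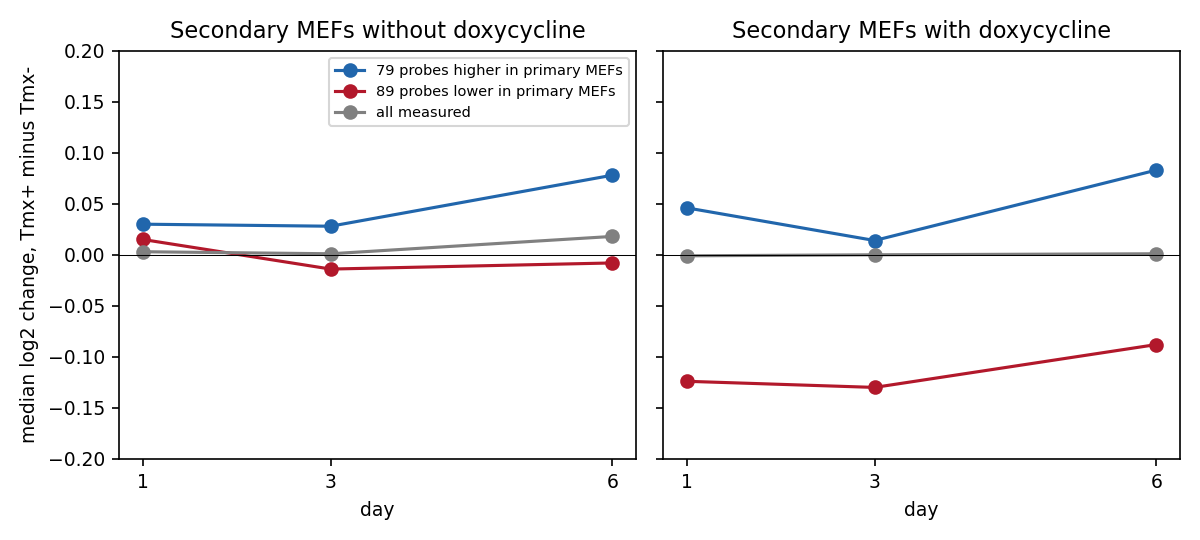
Median log2 change with tamoxifen (vertical axis) on days 1, 3 and 6 (horizontal axis) in secondary MEFs without (left) and with doxycycline (right), for the 79 probes that rose and the 89 that fell in primary Zscan4ERT2 MEFs and for all measured probes. With doxycycline the median of the falling probes is -0.124, -0.13 and -0.088, while without it lies between -0.014 and 0.015.

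The contrast of the falling probes between cultures with and without doxycycline was also seen at Z00050331-1. With doxycycline its log2 ratios without tamoxifen were -1.30 and -1.35 at day 1. They were -0.57 and -0.59 at day 3, and -1.30 and -1.27 at day 6. With tamoxifen as well they were -1.58 and -1.51, -0.90 and -0.91, and -1.56 and -1.52. Tamoxifen arrays were lower than their controls on each day, by -0.22 (adjusted p = 0.0931 in limma), -0.32 (adjusted p = 0.000221) and -0.25 (adjusted p = 0.00213). Without doxycycline the changes were -0.04, -0.01 and 0.01.

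Z00025395-1 also moved the same way in both experiments. With doxycycline its log2 ratios without tamoxifen were -2.76 and -2.71 at day 1. They were -1.69 and -1.78 at day 3, and -1.21 and -1.49 at day 6. With tamoxifen they were -2.42 and -2.37, -1.23 and -1.23, and -0.57 and -0.74. The changes were 0.34 (adjusted p = 0.163 in limma), 0.50 (adjusted p = 0.000668) and 0.70 (adjusted p = 7.12e-06), with groups apart on each day. Without doxycycline they were 0.29, 0.14 and 0.05, none of them called. The overlapping probe Z00058639-1 had 0.27, 0.50 and 0.73 with doxycycline. Z00030893-1 and Z00024200-1, the largest changes of the primary cells, had 0.12 and 0.23 on day 3 and -0.03 and 0.09 on day 6 with doxycycline, none of them called. Their log2 ratios with doxycycline and no tamoxifen were -0.14 to 0.04 and -0.04 to 0.36. In untreated primary transgenic MEFs they were 3.76 and 3.89, and 1.67 and 1.89. Z00030893-1 thus already lay below its treated primary level (1.78 and 2.33), so these values cannot show whether its fall was repeated.

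Both lists held a larger share of probes that are higher in fibroblasts than in ES cells than the measured probes did; this was not tested. ES cells lay at least 2-fold below untreated wild MEFs at 46 of the 79 rising (58.2%) and 53 of the 89 falling probes (59.6%), against 23.3% of measured probes. They lay at least 2-fold above at 14 (17.7%) and 9 (10.1%), against 13%. The median of ES cells minus untreated wild MEFs was -1.33 for rising, -1.49 for falling and -0.15 for all measured probes. These arrays are not part of the comparison that chose the lists. Since measured probes were defined in MEFs, detection in ES cells is given beside: 68.4% of rising and 73% of falling probes were well above background in ES cells, against 93.8% of measured probes.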

How the data were processed

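The file headers name Agilent Feature Extraction 9.5.1.1 as the software that quantified the 2-colour arrays. The deposited mean intensity of each spot, without subtraction of the local background, was used in both channels. The reason is that wild Tmx+ replicate 1 has outlying local backgrounds at some spots (lowest Cy3 signal minus local background -34169). Its median Cy3 local background was 45, against a median Cy3 signal of 94.92. Spots flagged as non-uniform or as population outliers were left out (1 to 20 per array). Loess within each array was applied to the log ratios in limma 3.58.1 (R 4.3.3), with control and non-uniform spots at weight 0, and the sign was turned to sample over reference. Spots of 1 probe were averaged, giving 42006 probes. Limma's lmFit and eBayes took all 36 arrays and fitted a mean for each group (residual degrees of freedom 18, prior 5.47), with Benjamini-Hochberg adjustment over all probes and calls at an adjusted p under 0.05. With 2 arrays a group, the spread of a single group is poorly known, and the pooled spread assumes that all 18 groups vary alike.

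As alternatives, Feature Extraction's deposited log10 ratio (red over green, after the software's own background and dye correction, per the file headers) and the series matrix were used. The deposited log10 values of the matrix cover 25030 probes, had array medians of 2.37 to 2.45 and followed log10 of Cy3 brightness (r = 0.952 to 0.981); the sources used here state no adjustment or centring for them. Differences between arrays in the matrix were within 0.01 (log2) of those in Feature Extraction's ratio at 71.1% of its probes for transgenic and 68.2% for wild MEFs, and of those in the sample channel alone at 5.54% and 10.6%, so the 2 deposited sets are not separate measurements. Both were converted to log2 by this work. Medians on the 8 arrays are 2.43, 2.423, 2.435, 2.436, 2.431, 2.434, 2.436 and 2.44, in the order untreated and treated transgenic, then untreated and Tmx+ wild.

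The named probes are the 2 with the largest change in each direction per comparison, among called probes well above background on both arrays of at least 1 compared group and with groups that do not overlap; Z00050331-1 and Z00058639-1 were added after their values were seen. The planned gene lists, marker lists and gene names could not be applied, as no probe was paired with a gene. The members and lists were chosen with earlier results of these data known. The fit was tested on simulated data for 42006 probes with independent noise. For tamoxifen in transgenic MEFs the fit recovered 93 of 100 probes set 0.5 apart and 98 of 100 set 1 apart, with 6 false calls. For the difference between the lines the numbers were 69, 96 and 9. The simulation held no effect shared by the arrays of a slide.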

Additional observations from a re-analysis of the deposited data

Results flagged for a closer look

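By the test of the difference itself in limma, the change with tamoxifen in Zscan4ERT2 MEFs differed from that in wild MEFs at 2110 probes (5.02%). Of these calls, 1394 were at probes that were not measured. At 192 measured probes (0.757%) the called changes differed by at least 0.5. The probes named for the difference were Z00025185-1 (0.93), Z00025395-1 (0.88), Z00030893-1 (-1.80) and Z00051255-1 (-1.39). In transgenic cells the changes of Z00025185-1 (0.17, adjusted p = 0.31 in limma) and Z00051255-1 (-0.63, adjusted p = 0.0663) were not called. Each of the 4 groups lay on its own slide, and slide and group cannot be told apart. In the reference channel alone, with the same RNA on every array, 2652 probes were called for this difference, and 329 measured probes differed by at least 0.5. With 2 arrays in each group no single array could be tested as an outlier.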

How the results depend on the processing

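Counts of called probes are given for transgenic MEFs, wild MEFs and the difference between them (7917, 153 and 2110), then for measured probes changed by at least 0.5 (168, 12 and 192). Of 78 such values under alternatives that keep all replicates, 42 stayed within 1.5 times and 36 did not; for these the cause was not tested except where fewer probes or arrays entered. Normexp on the deposited local backgrounds gave 274 and 73 for the first and the last count, and 62, 69 and 45 for the larger changes; with outlying backgrounds replaced it gave 877, 78 and 212, and 105 for the larger differences. Feature Extraction's ratio gave 1383, 852 and 1046, then 388, 191 and 384, and 6 for tamoxifen without doxycycline. The series matrix gave 3502 and 1193 for the lines, then 447, 224 and 486, and 377 without doxycycline. The sample channel alone gave 4101 and 721, then 378, 72 and 413. Median centring gave 1123 for the difference. Fitting measured probes only gave 1735 and 426, and probes measured in both channels (added after seeing the data) 1576, 377 and 124. The 8 primary arrays alone gave 4999, 0 and 48, then 0 for wild MEFs and 44 for the larger differences.

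Leaving out 1 array gave 2778 to 6164, 15 to 262 and 809 to 1676 calls, then 126 to 364, 2 to 77 and 128 to 296, and 0 to 5189 without doxycycline. Replicate numbers were not taken as pairs in the main fit. Deviations of same-numbered replicates correlated at -0.248 to 0.255 between the 4 groups. Over 153 pairs of all 18 groups they correlated at -0.686 to 0.622 (median -0.01). On the primary arrays the file headers place replicate 1 at slide position 3 and replicate 2 at position 4. The replicate block moved no count by over 1.5 times (7828, 155 and 2083, then 168, 12 and 189, and 0 without doxycycline). Flagged spots kept and centring by base composition, both added after seeing the data, moved no count by that much either.

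Of 365 values of named probes under alternatives, 281 kept direction and call, 72 lost the call and 12 turned. On the deposited local backgrounds the turned values were -0.77 for Z00024200-1, -0.17 for Z00031811-1 and 0.10 for Z00025185-1 in wild MEFs, and -0.06, 0.41 and -0.09 for the differences of Z00025395-1, Z00031811-1 and Z00058639-1; the difference of Z00031811-1 was 0 with backgrounds replaced. That of Z00030893-1 was 0.10 in the series matrix and that of Z00024200-1 was -0.57 in Feature Extraction's ratio. In the sample channel alone Z00028173-1 had 2.30 in wild MEFs, and the differences of Z00031811-1 and Z00028173-1 were 0.26 and -1.50. Dim signals limit precision: 16625 probes were not well above background in any of the 4 groups.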
